A study of Mus musculus with 6 samples.

Results

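The miR-26 family was measured in mouse renal cortex by 2 probes, miR-26a and miR-26b (mmu-miR-26a and mmu-miR-26b on the array), out of 599 mature miRNA probes on a microarray. Both were chosen by name, as the guide strands of the family on the array, without regard to their values. The treated group held 3 C57Bl6 mice kept on a diet of 0.05% sodium for 10 days whose drinking water held 0.5 g/L of captopril, which blocks angiotensin converting enzyme. The control group held 3 untreated C57Bl6 mice. Each group held 2 males and 1 female, and the mice were 3.5 months old apart from treated replicate 1, a female of 5 months. The female of the control group was control replicate 3. Treated replicate 2 and control replicates 1 and 3 carried the dye Cy3, and treated replicates 1 and 3 and control replicate 2 carried Cy5. The label gives whole renal cortex, so fewer cells of a type and less miRNA per cell cannot be told apart.

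MiRNAs guide the Argonaute protein to messenger RNAs that pair with their seed, the bases near the 5′ end, and lower the output of those messages. The miR-26 miRNAs lie in introns of genes of the Ctdsp family, whose small phosphatases act on RNA polymerase II and, in human cells, on the retinoblastoma protein. In human and mouse cells miR-26 is known to restrain G1 cyclins and the histone methyltransferase Ezh2, and it is abundant in most adult tissues, kidney included.

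The mature sequences show how close the members are, and what an array probe must tell apart. They were taken from the array's target sequences, match RefSeq letter for letter, and are printed 5′ to 3′ with the seed (bases 2 to 8) in capitals.
miR-26a: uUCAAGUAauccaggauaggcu
miR-26b: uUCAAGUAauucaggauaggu
MiR-26a has 22 bases and miR-26b has 21. Laid side by side from the 5′ end without gaps, they share 19 of 21 positions, and going from miR-26a to miR-26b the differences are C11U and C21U. They share the seed UCAAGUA, which no other of the 599 target sequences and no other of 1679 mature mouse miRNA names in the RefSeq table carries at these bases. The members lie 2 edits (bases changed, added or lost) apart. The nearest other target on the array lies 9 edits from miR-26a and 8 edits from miR-26b, so the sequence closest to either member is the other member. How far the probes read each other's miRNA was not tested.

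MiR-26a is made from 2 genes and miR-26b from 1, and the 3 hairpins are shown with the mature strand in capitals (RefSeq, GRCm38.p6), since the array cannot tell the 2 sources of miR-26a apart.
Mir26a-1, chr9:119031796-119031885, plus strand: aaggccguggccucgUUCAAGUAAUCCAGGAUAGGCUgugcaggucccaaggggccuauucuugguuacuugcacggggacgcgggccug
Mir26a-2, chr10:126995530-126995613, plus strand: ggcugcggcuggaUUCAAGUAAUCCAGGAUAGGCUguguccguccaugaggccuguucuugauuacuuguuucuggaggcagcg
Mir26b, chr1:74394310-74394394, plus strand: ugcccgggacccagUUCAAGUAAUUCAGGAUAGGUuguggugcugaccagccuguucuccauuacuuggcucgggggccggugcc
In the RefSeq table Mir26a-1 lies within the span of Ctdspl, Mir26a-2 within Ctdsp2 and Mir26b within Ctdsp1, each on the strand of its host and within no other protein-coding span. The mature strands of Mir26a-1 and Mir26a-2 have identical letters, so the miR-26a value sums the output of both. The opposite strand of the Mir26b hairpin has its own probe, miR-26b*, which did not lie above background in any of the 6 samples.

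The mean log2 intensity of a miRNA had to exceed that of a sample's 669 empty spots by over 3 SD to count as above background there, which 127 to 229 miRNAs per sample did. Tests covered the 197 miRNAs that met this in 3 or more samples, both members among them. Control replicate 3, the female control, stood apart from the rest. Its median Spearman's rho with the 5 other samples over the tested miRNAs was 0.862, against 0.910 to 0.933 for the others, and its brightest miRNA spot read 21297, against 47998 to 59306 elsewhere. Of 6 miRNAs that mark the renal tubule, 5 passed this filter and miR-215 was not above background in any sample.

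Both members were bright, well above background in all 6 samples. In the deposited spot tables, with the background not subtracted, the mean of the 5 miR-26a spots read 34429, 30483 and 33539 in treated replicates 1, 2 and 3, against 35042, 18580.1 and 21115 in control replicates 1, 2 and 3. The treated samples lay close together, and the controls lay on both sides of them, with control replicates 2 and 3 the dimmest. The 5 miR-26b spots averaged 25099, 19725 and 16147 in treated replicates 1, 2 and 3, against 29025, 8034 and 8376 in control replicates 1, 2 and 3. Again control replicate 1 was the brightest of all 6 and control replicates 2 and 3 the dimmest, so the groups overlapped for both members. Each mean lay between 38.3 times (miR-26b, control replicate 3) and 976 times (miR-26a, treated replicate 3) the median empty spot of its own sample. The Cy3 samples had the brighter empty spots, with medians of 219 to 459, against 34.4 to 51.2 in Cy5.

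Spots of a probe lay far closer together than samples did. Their coefficient of variation ran from 1.09% to 4.99% for miR-26a and from 1.75% to 9.78% for miR-26b. Between the brightest and the dimmest sample the mean intensity differed 1.89-fold for miR-26a and 3.61-fold for miR-26b.

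**Figure D1:**
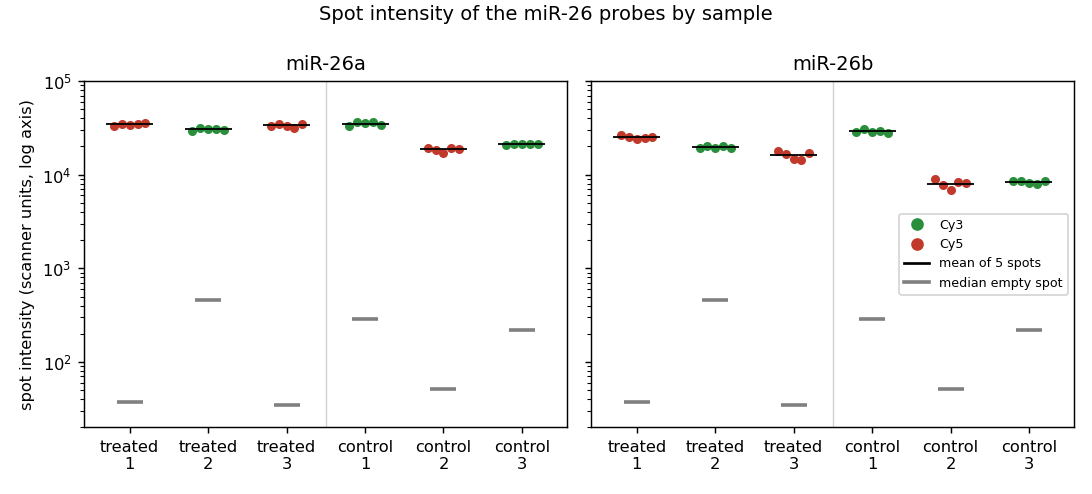
Intensity of each of the 5 spots of miR-26a (left) and miR-26b (right) in treated and control samples, on a log axis in scanner units, coloured by dye, with the mean of the spots (black line) and the median empty spot of the sample (grey line). Spots of a sample lie close together, and control replicates 2 and 3 lie lowest for both probes.

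By brightness miR-26a held the 7th, 8th and 7th place among the 599 probes in treated replicates 1, 2 and 3, against the 8th, 7th and 1st place in control replicates 1, 2 and 3. In control replicate 3 it was thus brighter than let-7a, the top probe of the other samples after normalisation. MiR-26b held the 10th, 11th and 12th place in treated replicates 1, 2 and 3, against the 9th, 13th and 22nd place in control replicates 1, 2 and 3. The members therefore moved in opposite directions in control replicate 3, miR-26a to the top and miR-26b down. By mean intensity over all samples miR-26a was 7th, between miR-709 and let-7e, and miR-26b was 12th, between miR-30c and the endothelial miR-126-3p. Brightness depends on the probe as well, so these places are no order of abundance.

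Levels below are log2 intensities after normexp background correction and quantile normalisation, which gives probes of equal rank the same value. MiR-26a lay at 14.74, 14.56 and 14.74 in treated replicates 1, 2 and 3, against 14.56, 14.74 and 15.45 in control replicates 1, 2 and 3. Only control replicate 3 stood outside the narrow band of the other 5 samples, 0.71 above its upper end. MiR-26a averaged 14.68 ± 0.10 in treated and 14.92 ± 0.47 in control samples (SD, n = 3 each).

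MiR-26b lay at 14.20, 14.08 and 13.98 in treated replicates 1, 2 and 3, against 14.29, 13.88 and 13.01 in control replicates 1, 2 and 3. The treated samples lay within the range of the controls, and control replicate 3 lay 0.87 below the lowest of the other 5. MiR-26b averaged 14.09 ± 0.11 in treated and 13.72 ± 0.65 in control samples (SD, n = 3 each). Over all 6 samples its SD was 0.46, above that of miR-26a (0.33), which equalled the median SD of the tested miRNAs.

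The authors' deposited processed intensities, made by an unstated normalisation, gave a picture that was alike in part. MiR-26a read 26766, 26884 and 31577 in treated replicates 1, 2 and 3, against 27938, 26397 and 33318 in control replicates 1, 2 and 3. MiR-26b read 19813, 17659 and 14876 in treated replicates 1, 2 and 3, against 21803, 14725 and 10314 in control replicates 1, 2 and 3. For each member the groups overlapped, and in both groups the sample numbered 3 had the highest miR-26a and the lowest miR-26b. For miR-26a, treated replicate 3 thus stood with control replicate 3 above the other samples. On the normalised levels only control replicate 3 had stood apart.

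**Figure D2:**
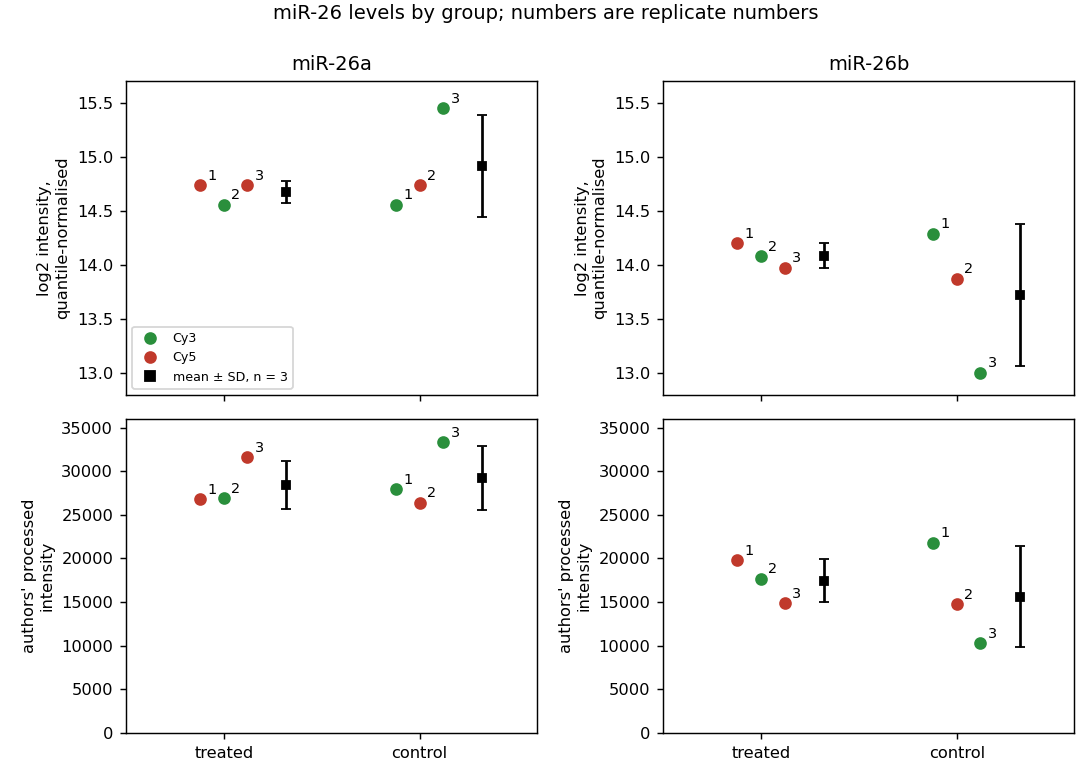
Level of miR-26a (left) and miR-26b (right) in treated and control samples, as quantile-normalised log2 intensity (top) and as the authors' processed intensity (bottom), with each point a mouse coloured by dye and marked with its replicate number, and squares for the mean ± SD (n = 3). Control replicate 3 is highest for miR-26a and lowest for miR-26b on both scales.

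Treated mice were set against controls to ask whether the family differs under this regimen, which is known to raise renin in the kidney. Neither member passed the test. MiR-26a differed by -0.22 on the log2 scale, treated minus control (SE 0.32, 95% interval -1.03 to 0.58, adjusted p = 0.995 in limma with a dye term). MiR-26b differed by 0.32 (SE 0.40, 95% interval -0.67 to 1.32, adjusted p = 0.995 in limma). Each interval runs past a doubling or a halving at one end. A halving of miR-26a and a doubling of miR-26b could thus not be excluded with these samples. No other miRNA passed either: 0 of 197 had an adjusted p under 0.05 (0%), and 1 (0.508%) had an unadjusted p under 0.05. The unadjusted p was 0.517 for miR-26a and 0.449 for miR-26b. An exact two-sided permutation test of the same levels without the dye gave p = 0.9 for miR-26a and p = 0.5 for miR-26b, where 3 against 3 samples cannot go below 0.1.

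The differences of both members leaned on single samples. Without control replicate 3, and with the other 5 samples normalised anew, miR-26a differed by 0 (95% interval -0.43 to 0.43) and miR-26b by 0.03 (95% interval -0.55 to 0.60, adjusted p = 1.00 for each in limma). Without treated replicate 2, which leaves Cy3 with controls only, miR-26a differed by 0 as well and miR-26b by 0.20. With the dye term, the fit averages a contrast within each dye. Within Cy3, treated replicate 2 lay at -0.44 from the mean of control replicates 1 and 3 for miR-26a, and at 0.44 for miR-26b. Within Cy5, the mean of treated replicates 1 and 3 lay at 0 from control replicate 2 for miR-26a, and at 0.21 for miR-26b. The miR-26a difference thus came from the dye that holds control replicate 3 and treated replicate 2. The miR-26b contrast within Cy5 does not involve control replicate 3.

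Same-numbered samples differed in no common direction. Treated minus control, miR-26a differed by 0.18, -0.18 and -0.71 in the samples numbered 1, 2 and 3, and miR-26b by -0.09, 0.21 and 0.97. Of the tested miRNAs, 14.2% were higher and 16.2% lower in treated samples in all 3 such pairs, and neither member was among them. Treated and control samples did not overlap for 4.57% of the tested miRNAs, and for both members they overlapped.

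**Figure D3:**
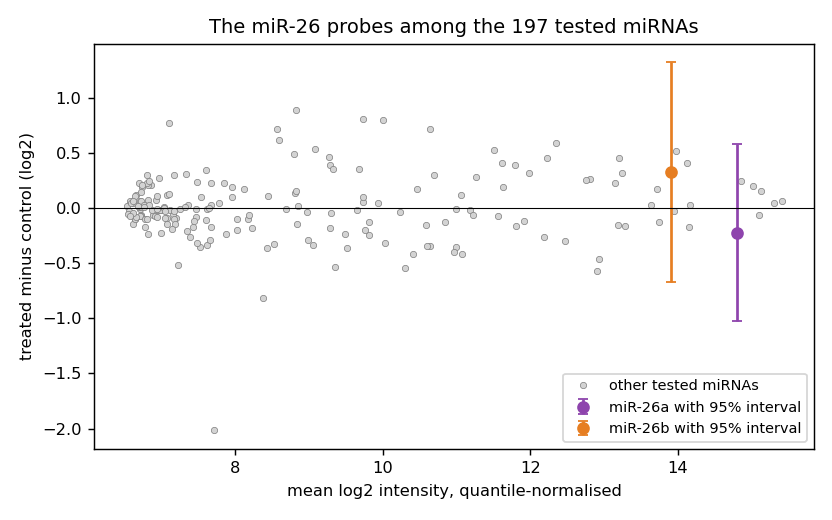
Treated minus control difference (log2, limma with a dye term) against the mean of the treated and control levels for the 197 tested miRNAs, with miR-26a and miR-26b in colour with their 95% intervals. Both intervals cross 0, at -0.22 for miR-26a and 0.32 for miR-26b, and both probes sit at the bright end of the array.

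Whether the members shifted against each other was read from the log2 difference of their probes within a sample, which no scaling of a whole sample can move. Its size also reflects the probes, so only its variation between samples is read. Before normalisation between samples, miR-26b minus miR-26a was -0.46, -0.64 and -1.06 in treated replicates 1, 2 and 3, against -0.27, -1.21 and -1.35 in control replicates 1, 2 and 3. The 3 treated values lay between those of control replicates 1 and 2, so the groups overlapped. The mean was -0.72 ± 0.31 in treated and -0.95 ± 0.59 in control samples (SD, n = 3 each), a difference of 0.23 that is smaller than either SD on this scale. With the authors' processed values the means were -0.71 ± 0.34 in treated and -0.96 ± 0.68 in control samples. In both tables the sample numbered 1 was the highest of its group and the sample numbered 3 the lowest. Quantile normalisation widened the gap in control replicate 3 to -2.44, against -1.35 before it. It narrowed the gap in control replicate 2 to -0.86, against -1.21 before it, and in treated replicate 3 to -0.76, against -1.06. On that scale the mean was -0.59 ± 0.15 in treated and -1.19 ± 1.12 in control samples (SD, n = 3 each), a difference of 0.60 that is over the treated SD and under the control SD, and the groups overlapped there too. After cyclic loess the difference of the means was 0.36.

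**Figure D4:**
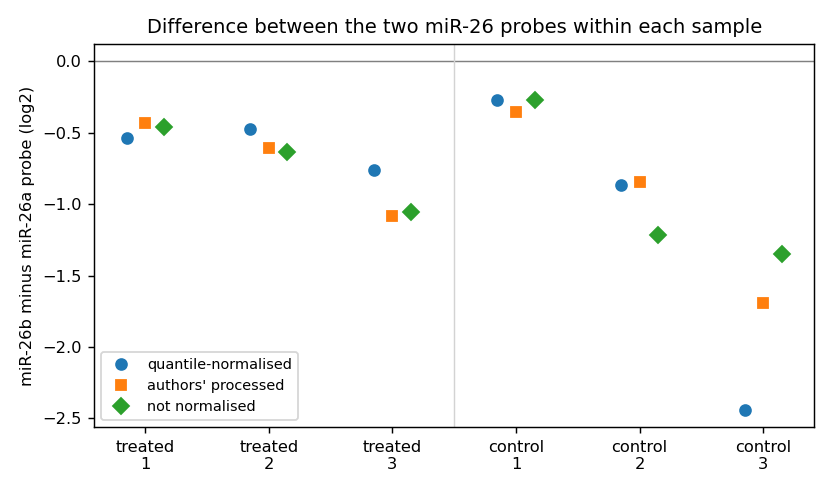
Log2 difference between the miR-26b and miR-26a probes within each treated and control sample, from quantile-normalised, not normalised and authors' processed values. The not normalised values run from -1.06 to -0.46 in treated and from -1.35 to -0.27 in control samples, and control replicate 3 is lowest on every scale, at -2.44 after quantile normalisation.

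Over the 6 samples the relation between the members took its sign from the scale. On normalised levels Pearson's r was -0.960 and Spearman's rho -0.772, with exact permutation p = 0.0333 and p = 0.1, or 0.05 and 0.15 after Benjamini-Hochberg adjustment over the 3 scales compared. Leaving out control replicate 3, the sample farthest from the median of miR-26a, and treated replicate 2 gave r = -0.704. Control replicate 1 lay as far from that median as treated replicate 2, so taking the latter was arbitrary. Without control replicate 3 alone r was -0.553. Without normalisation between samples r was 0.942 and rho 0.943 (exact permutation p = 0.0181 and p = 0.0167, both 0.05 after adjustment), and r was 0.521 without control replicates 2 and 3. On the authors' processed values r was -0.726 and rho -0.257 (exact permutation p = 0.118 and p = 0.658, with the same values after adjustment), and r was 0.842 without control replicate 3 and treated replicate 3. Without control replicate 3 alone r was 0.923 without normalisation between samples and -0.309 on the authors' processed values. The relation weakened or turned on each scale when each pair of samples was left out. Leaving out samples far from the median narrows the spread and can by itself lower r, so that step decides little. Without control replicate 3 alone, the relation without normalisation between samples was almost unchanged.

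The miRNAs most like each member over the 6 normalised samples were found by Pearson's correlation, as a description. For miR-26a they were miR-23a (0.964), miR-30c (0.962), miR-100 (0.952) and miR-27b (0.938). For miR-26b they were let-7d (0.954), let-7a (0.947), let-7e (0.932) and let-7i (0.930). Without control replicate 3 the first 4 correlated with miR-26a at 0.847, 0.477, 0.444 and 0.574, and let-7d, let-7e and let-7i with miR-26b at 0.365, 0.439 and -0.154, while let-7a had the same level in all 5. The likeness to these miRNAs was thus set largely by that sample. After group and dye were taken out, miR-99a (0.999), miR-145 (0.992), miR-30c (0.988) and miR-23b (0.983) lay closest to miR-26a, and miR-146a (0.994), miR-203 (0.992), miR-451 (0.985) and miR-195 (0.969) to miR-26b. Without control replicate 3 the levels of these miRNAs correlated with miR-26a at 0.210, -0.221, 0.477 and 0.733, and with miR-26b at 0.0375, 0.362, 0.0214 and 0.500, so this likeness rested on that sample too. That fit also leaves only 3 degrees of freedom.

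Other miRNAs that are known to act on the same messages as miR-26 did not pass the test either. Of 13 miRNAs known to target Ezh2 (let-7 members, miR-98, miR-101a, miR-101b, miR-138 and miR-214), 12 were tested and 0 passed. In limma 9 of these differences lay above 0 and 3 below, with a median of 0.11 against -0.01 over all tested miRNAs. The 9 above 0 were the let-7 members and miR-98, which are of 1 family. The 3 below were miR-214 (-0.36), miR-101a (-0.18) and miR-101b (-0.19). The count and the median thus mostly describe the let-7 family. The sign depended on the scaling. After cyclic loess 2 lay above and 10 below 0, with a median of -0.28 against 0.01 over all tested miRNAs. After scaling to the 75th percentile of the miRNAs above background in all samples, 1 lay above and 11 below. The list's median was then -0.44, still above the -0.53 of all tested miRNAs. The brightest, let-7a, lay at 15.45 in every treated sample and at 15.36 ± 0.16 in control samples (SD, n = 3), a difference of 0.07. Let-7f lay at 15.33 ± 0.06 in treated and 15.27 ± 0.17 in control samples, a difference of 0.04.

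Of 12 miRNAs known to restrain the G1 phase of the cell cycle, as miR-26 does, 6 were tested and 0 passed. Their differences lay above 0 for 5 and below for 1, with a median of 0.32 against -0.01 over all tested miRNAs. The 5 above 0 were miR-15a, miR-15b, miR-16, miR-195 and miR-497, which are of 1 seed family. MiR-34a, outside that family, differed by -0.20. The list's median thus mostly describes that family. MiR-16, which represses G1 cyclins, lay at 13.40 ± 0.41 in treated and 13.09 ± 0.48 in control samples, and its relative miR-195 at 12.16 ± 0.15 in treated and 11.79 ± 0.30 in control samples (SD, n = 3 each). Their differences were 0.32 and 0.31. The list's median also lay above that of all tested miRNAs after cyclic loess, at 0.47 against 0.01. With the authors' processed values it was 0.43 against 0.03. It lay above without normalisation between samples and with the percentile scalings as well. Those fits differ only by a shift of whole samples, which cannot change the list's place against that median, so they count as 1 result. The other 6 members, among them miR-34c and miR-449a, were not above background in any sample.

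Of 29 further miRNAs that lie in introns of protein-coding genes, as the miR-26 genes do, 18 were tested and 0 passed, with 7 differences above 0 and 11 below. That split turned with the scaling, with 16 above and 2 below without normalisation between samples, 13 and 5 with 75th percentile scaling over all probes, 10 and 8 with the authors' processed values, and 3 and 15 with the 75th percentile of the miRNAs above background in all samples. Their median was -0.07, against -0.01 over all tested miRNAs, 0.33 against 0.29 without normalisation between samples, and 0.02 against 0.03 with the authors' processed values. With the 75th percentile of the miRNAs above background in all samples it was -0.49 against -0.53. The list's median thus moved along with that of all tested miRNAs, as it must between scalings that differ only by a shift of whole samples. MiR-30c, with a hairpin in Nfyc, lay at 14.02 ± 0.17 in treated and 14.29 ± 0.93 in control samples (SD, n = 3 each), a difference of -0.17. The array has probes for miR-30c-1* and miR-30c-2*, the opposite strands of separate hairpins, so the miR-30c value need not come from Nfyc alone. MiR-126-3p, in the endothelial gene Egfl7, lay at 13.92 ± 0.14 in treated and 13.96 ± 0.21 in control samples, a difference of -0.03.

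The 2 tested markers of red cells were lowest in control replicate 3, and their means were higher in treated than in control samples. MiR-451 differed by 0.80 and miR-486 by 0.89, treated minus control, and neither passed (adjusted p = 0.995 for each in limma). Both were higher in treated samples in all 3 same-numbered pairs, as 14.2% of the tested miRNAs were. The summed normalised intensity of the erythrocyte markers miR-451, miR-486 and miR-144 ran from 2103 to 2424 in treated and from 650 to 1761 in control samples, with miR-144 not above background in any sample. MiR-451 was lowest in control replicate 3, at 8.72, the sample in which miR-26b was lowest too. The part of red cells in the miR-26b values was not tested. The summed level of the 5 leukocyte markers ran from 945 to 1979 in treated and from 675 to 1865 in control samples, of which 2 were tested and 0 passed. Of 6 miRNAs that mark liver, muscle or brain, 2 were tested and 0 passed, with miR-124 not above background in any sample and the liver's miR-122 at 6.94 ± 0.40 in treated and 6.68 ± 0.23 in control samples.

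The size of the miR-26 differences depended on how the samples were scaled to each other. MiR-26a differed by 0.51 without normalisation between samples and by 0.39 with 75th percentile scaling over all probes. The median of all tested miRNAs moved to 0.29 and 0.17 there. MiR-26b differed by 0.83 and 0.71 in these fits. They differ only by a shift of whole samples, so the place of miR-26a above that median is the same in both. On quantile-normalised levels miR-26a lay below the median, at -0.22 against -0.01. After cyclic loess miR-26a differed by -0.40 and miR-26b by -2.05e-05, against a median of 0.01. With the authors' processed values miR-26a differed by -0.02 and miR-26b by 0.23, against a median of 0.03. None of these differences passed, with the smallest adjusted p over all alternatives at 0.742 for miR-26a and 0.640 for miR-26b in limma.

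**Figure D5:**
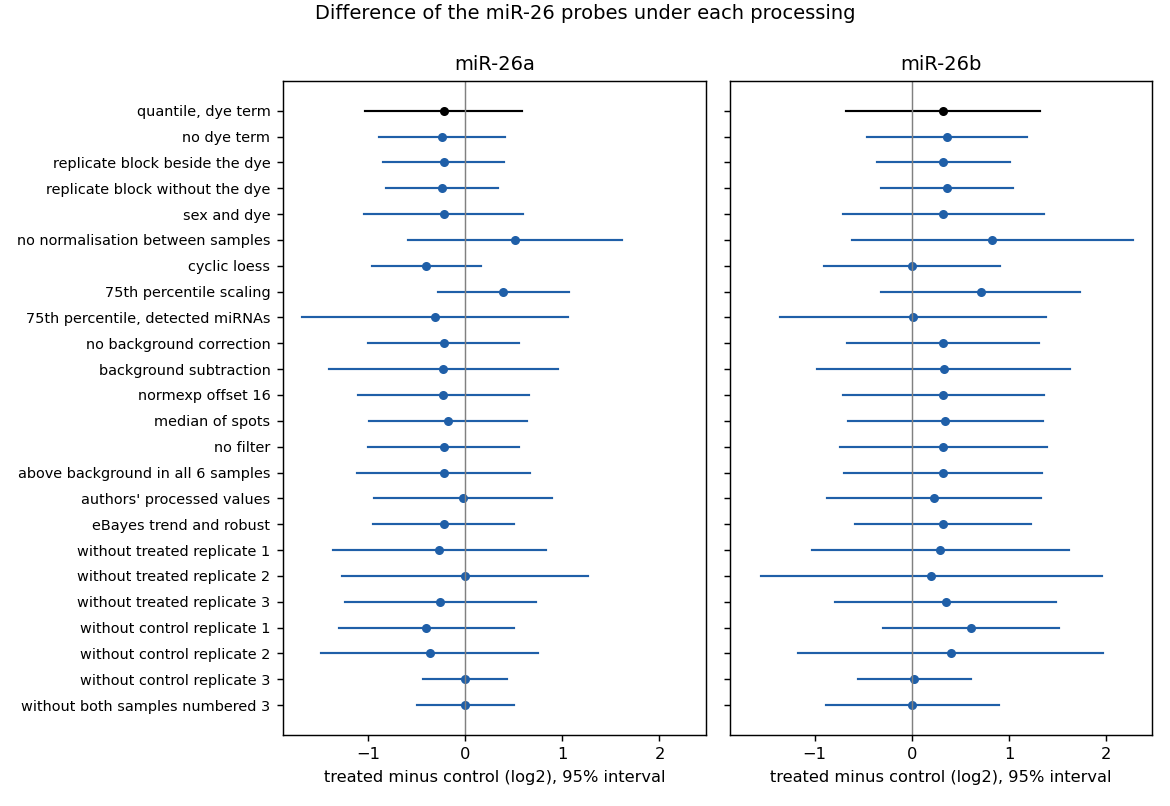
Treated minus control difference (log2) of miR-26a (left) and miR-26b (right) with its 95% interval in limma, for the dye-adjusted fit of the quantile-normalised samples (black, -0.22 and 0.32) and for each alternative (blue). Every interval crosses 0, and those without control replicate 3 are centred at 0 and 0.03.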

How the data were processed

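Small RNA of renal cortex was tailed, tagged, stained with Cy3 or Cy5 and hybridised by a service provider, per the labels' protocols. The deposited spot tables hold the mean intensity of each of 3968 spots on a linear scale, per the file headers, with 5 spots per miRNA, and their empty spots lie well above 0. The authors' deposited processed intensity of each miRNA is in whole numbers with medians of 17 to 19. Neither the labels nor the file header state its scale, centring or normalisation, and it served as an alternative.

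In R 4.3.3 with limma 3.58.1, intensities were corrected with normexp (offset 50), averaged as log2 over the spots of a probe and quantile-normalised over the 599 probes. Groups were compared with lmFit and eBayes (two-sided) with a dye term over the 197 tested miRNAs, with Benjamini-Hochberg adjustment over all of them and a threshold of 0.05. The labels give both groups the numbers 1, 2 and 3. After subtraction of the group means, the samples numbered 1, 2 and 3 correlated across groups at r = 0.447, 0.460 and 0.781 over the tested miRNAs. Each is over 0.1, and on that ground same-numbered samples were also set against each other as pairs, a pairing drawn from the data. Treated and control samples of different number correlated at -0.572 to 0.256. Treated replicate 2 with control replicate 1 (0.256) and treated replicate 1 with control replicate 2 (0.246) were over 0.1 too. The main fit and the permutation test did not use these pairs. A replicate block entered only as an alternative fit. Same-numbered samples carried opposite dyes, and their empty spots correlated at Spearman's rho of 0.494, 0.529 and 0.356, against -0.0109 to 0.418 for treated and control samples of different number. The series' design text puts each replicate on its own array. Whether same-numbered samples nonetheless shared a hybridisation was not tested. The script was tested on simulated data. The members, the lists and the rule for named miRNAs (the members, the 4 closest by correlation, the 2 brightest of each list and the neighbours in brightness) were chosen with earlier results of these data known. MiRNAs outside that rule are named as list members or markers. Each sample is a mouse of its own, per the series' design text, and the number of arrays limits the precision. P-values measure the spread between these samples.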

Additional observations from a re-analysis of the deposited data

How the results depend on the processing

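Over 26 alternatives the miR-26a difference ran from -0.44 to 0.51, below 0 in 20 and above 0 in 2, without normalisation between samples (0.51) and with 75th percentile scaling (0.39). In the other 4, within Cy5 and without treated replicate 2, control replicate 3 or both samples numbered 3, it was 0. The miR-26b difference was above 0 in 25 of 26 and -2.05e-05 with cyclic loess, with a highest value of 0.83. When 1 sample was left out, the differences ran from -0.40 to 0 for miR-26a and from 0.03 to 0.61 for miR-26b, with the highest miR-26b value without control replicate 1. No miRNA passed in any of the 23 fits. The count at an unadjusted p under 0.05 ran from 0 to 13 when 1 sample was left out, and it was 19 with the replicate block and no dye term. With the replicate block beside the dye, miR-26a differed by -0.22 (adjusted p = 0.896) and miR-26b by 0.32 (adjusted p = 0.810) in limma, 0 miRNAs passed and 15 had an unadjusted p under 0.05, with 1 residual degree of freedom. The block changed no call. Scaling to the 75th percentile of the miRNAs above background in all samples, chosen after seeing the data, moved the median of all tested miRNAs to -0.53, miR-26a to -0.31 and miR-26b to 0.009. The cause of the shifts between scalings was not tested. Both probes lay far above background. With background subtraction miR-26a differed by -0.22 (SE 0.48) and miR-26b by 0.33 (SE 0.53) in limma, against SEs of 0.32 and 0.40 in the main fit. The part of background in their spread was not tested.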
